A study of Mus musculus with 20 samples.

Results

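The genes described here are the enzymes and carriers of mitochondrial and peroxisomal beta-oxidation. They are a list of 39 genes set by name, chosen with earlier results of these data known. A gene was measured where at least 1 probe set of the array names it and no other gene. This held for 37 of the 39 genes, with 69 such probe sets among the 45037 of the array. Cpt1b, the muscle form of the carnitine palmitoyltransferase, shares its probe set with neighbouring genes, and Acsl1, a long-chain acyl-CoA synthetase, is not in the annotation used, so both were not analysed here. The probe sets of all genes together stand for 18193 genes.

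Beta-oxidation shortens fatty acyl-CoA by repeated rounds of dehydrogenation, hydration, a second dehydrogenation and thiolytic cleavage. Long-chain acyl groups enter the mitochondrion through the carnitine shuttle, whereas very long and branched chains are first shortened in the peroxisome. In the liver the pathway supplies energy and acetyl-CoA for ketone bodies during fasting, and many of its genes are targets of the nuclear receptor PPARa.

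The study asked which hepatic responses to CMP013, a compound known here by its code name, depend on the pregnane X receptor (PXR), a nuclear receptor that senses foreign compounds. Livers came from 4 groups of 5 male mice, 9 weeks old at the first dose: WT mice (PXR+/+, C57BL/6) given vehicle, WT mice given CMP013, PXR-KO mice (PXR-/-) given vehicle and PXR-KO mice given CMP013. CMP013 was given by gavage at 150 mg/kg/day every 24 h, the vehicle groups received the carrier alone, and all mice were killed at 96 h after a fast of 3 to 4 h. RNA of each mouse went to 1 Affymetrix Mouse430_2 array. The PXR-KO line is given as C57BL/6NTac in 1 place and as C57BL/6 in another, so that the receptor and the substrain cannot be told apart, and food intake of single mice was not monitored. No cell type was selected.

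Every value relates 1 animal to the vehicle mean of its own genotype, as a ratio. Levels of different genes, and levels of WT and PXR-KO vehicle mice, were therefore not compared, and neither the presence of liver markers nor the loss of the PXR transcript could be checked. A log2 fold change is the mean log2 ratio of the CMP013 animals minus that of the vehicle animals. "Fell", "rose" and "called" are used where the adjusted p of limma over all 45037 probe sets was under 0.05. Differences between genotypes were taken as WT minus PXR-KO. Each gene is represented by 1 probe set, and its others are given for called genes where they disagree in their call. Probe sets of 1 gene had values of both signs for 5 genes in WT and for 8 in PXR-KO mice, and none was called in opposite directions within a genotype.

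In WT livers 10 of the 37 genes fell and 3 rose after CMP013, which is 27% lower and 8.11% higher. Over all probe sets 6.72% were lower and 7.67% higher, and with 1 probe set per gene the shares were 7.98% and 9.72%. The share of beta-oxidation genes that fell was thus above that of the array, while the share that rose was close to it. With quantile normalization 4 fell and 0 rose by limma, where 3 higher values had an unadjusted p under 0.05, and 1.68% of all probe sets were lower and 2.21% higher. In PXR-KO livers 4 genes fell and 2 rose (10.8% and 5.41%), against 1.54% and 2.12% of all probe sets and 2.14% and 2.5% with 1 probe set per gene. With quantile normalization 3 fell and 0 rose there by limma, where 2 higher values had an unadjusted p under 0.05, against 0.531% and 0.575% of all probe sets. With trend and robust variances limma called 0 genes there, as it did over the whole array, with 14 lower and 3 higher values at an unadjusted p under 0.05. The main fit also gave 14 and 3 such values in PXR-KO mice, against 9.25% and 10.8% of all probe sets. For WT mice it gave 15 and 3, against 13.7% and 13.8%. Such unadjusted shares were not counted for the alternative runs. With all 4 groups in 1 fit 11 fell and 2 rose in PXR-KO mice, against 2.99% and 3.78%. RNA was taken from pieces of whole liver, where fewer cells of a type and less RNA per cell cannot be told apart.

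Over the 37 genes the log2 fold change had a median of -0.11 in WT mice and of -0.15 in PXR-KO mice, against -0.01 and 0.01 over all probe sets. Values below 0 were found for 25 genes in WT and for 27 in PXR-KO mice. The animals of both groups did not overlap for 14 genes that were lower and 2 that were higher in WT mice, where 6.96% and 7.78% of all probe sets were so separated. In PXR-KO mice this held for 10 genes that were lower and 2 that were higher, against 3.5% and 4.07% of all probe sets. The spread among vehicle animals was smaller for these genes than for others, with a median SD of 0.10 on the log2 scale against 0.22 over 1 probe set per gene, and the part of this in the counts was not tested.

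A total of 9 of the measured genes (Acaa1a, Acaa1b, Acaa2, Acad8, Acads, Acadsb, Acox3, Cpt1a and Ehhadh) are named in the results of the study itself on these same animals. Of those 9, 6 fell in WT and 3 in PXR-KO mice, which is not independent evidence of their direction. Of the other 28 genes, 4 fell and 3 rose in WT mice, and 1 fell and 2 rose in PXR-KO mice. These are 14.3% lower with 10.7% higher in WT mice, and for PXR-KO mice 3.57% lower with 7.14% higher, closer to the shares over 1 probe set per gene than those of the 9 named genes, 66.7% and 33.3% lower.

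Both genotypes shared 4 calls. Acadsb, Acad8 and Acaa2 fell in both, and Acsl3 rose in both. A further 9 genes were called in WT mice alone and 2 in PXR-KO mice alone. The shares of all probe sets in these classes were not counted, so the counts are a description. Of 18 alternative runs, the PXR-KO call was lost in 3 for Acadsb, 2 for Acad8, 9 for Acaa2 and 8 for Acsl3. A call in 1 genotype does not show a difference between them, and the difference itself was called for 3 genes. The WT response was lower for Cpt1a and Acadm and higher for Acsl5, which is 5.41% lower and 2.7% higher, against 5.49% and 5.47% of all probe sets and 6.22% and 7.39% with 1 probe set per gene. The number of genes whose responses differed was thus not above the share over the array.

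**Figure D1:**
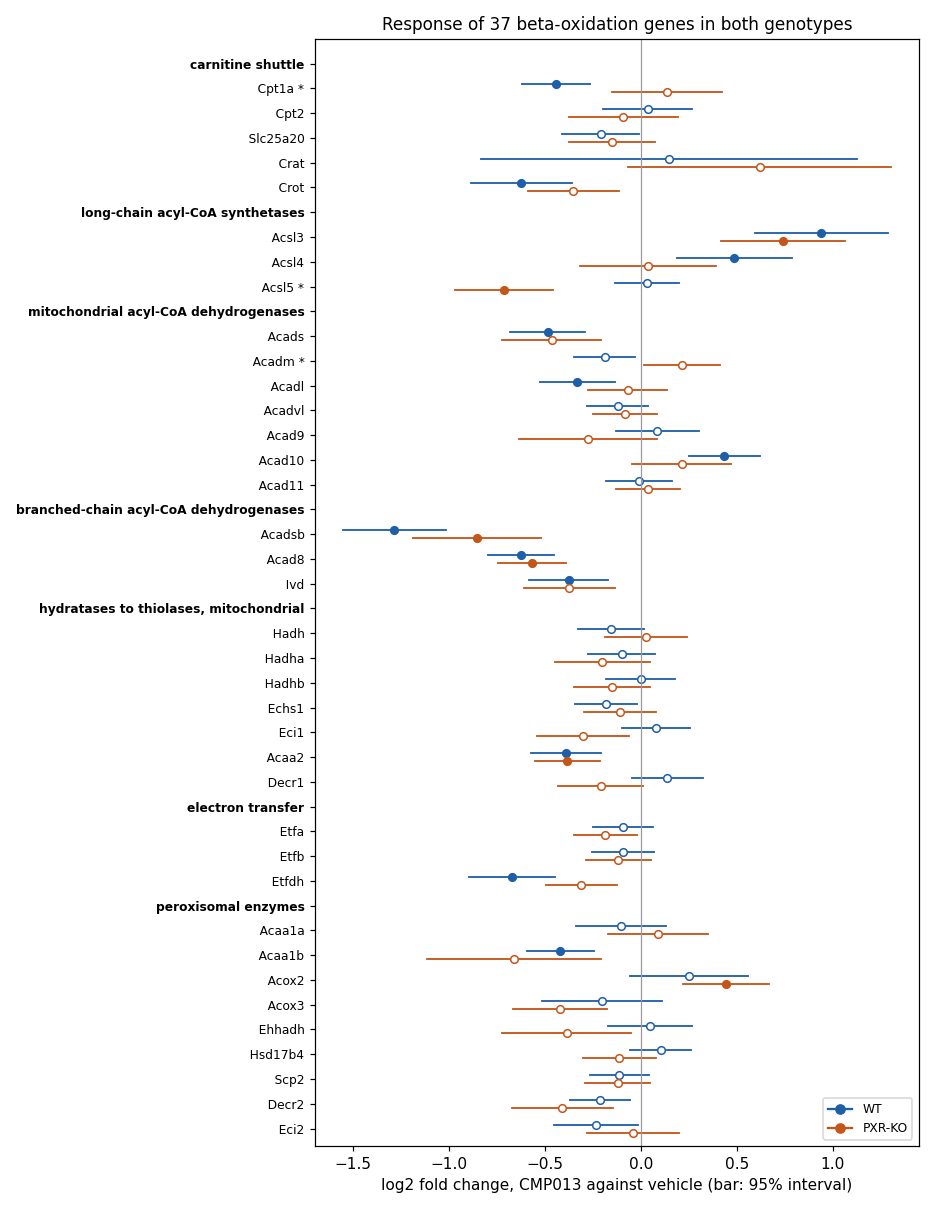
Log2 fold change of CMP013 against vehicle (x axis) for the 37 beta-oxidation genes by role, in WT (blue) and PXR-KO mice (orange), 5 animals per group. Bars are 95% intervals of limma, filled points are called in that genotype and an asterisk marks a called difference between genotypes. Acadsb, Acad8 and Ivd lie left of 0 in both genotypes, and Cpt1a, Acsl5 and Acadm are the 3 genes with an asterisk.

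The first step at which long-chain acyl groups commit to the mitochondrion is catalysed by Cpt1a, the liver carnitine palmitoyltransferase of the outer membrane. In the 5 WT vehicle animals its ratios were 1.03, 1.06, 1.08, 0.97 and 0.937. In the WT animals given CMP013 they were 0.748, 0.745, 0.706, 0.813 and 0.732, all below the lowest vehicle animal. PXR-KO vehicle animals had ratios of 1.07, 1.04, 0.983, 0.993 and 0.949, and treated ones 1.32, 0.822, 1.17, 1.24 and 1.06, so that these groups overlapped, with 4 treated animals above 1 and 1 below all vehicle animals. Cpt1a fell by 0.44 in WT mice (log2, SE 0.08, limma adjusted p = 0.00547), whereas the PXR-KO value was 0.14 (SE 0.13, limma adjusted p = 0.597). The WT response was lower than the PXR-KO response by 0.58 (limma, difference -0.58, SE 0.14, adjusted p = 0.0145). The other 2 probe sets of Cpt1a gave differences of -0.63 and -0.90, both called (limma adjusted p = 0.018 and 0.00777), although neither was called in WT mice alone. Their PXR-KO values were 0.35 and 0.44, also uncalled (limma adjusted p = 0.149 and 0.0887), the second without overlap of the groups. The difference was lost with quantile normalization, with a replicate block and without 4 vehicle animals (WT 3 and 4, PXR-KO 2 and 4), with an adjusted p of up to 0.107.

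Crot, the peroxisomal carnitine octanoyltransferase that hands chain-shortened acyl groups to carnitine, also fell in WT mice. Its ratios were 1.12, 1.13, 0.936, 0.822 and 1.05 under vehicle and 0.661, 0.634, 0.701, 0.726 and 0.549 under CMP013, without overlap. In PXR-KO mice they were 1.00, 0.911, 1.12, 0.911 and 1.07 under vehicle and 0.858, 0.698, 0.792, 0.886 and 0.696 under CMP013, also without overlap. The log2 fold change was -0.62 (SE 0.12, limma adjusted p = 0.00709) in WT and -0.35 (SE 0.11, limma adjusted p = 0.101) in PXR-KO mice, and the second value did not pass the test. Another probe set of Crot had -0.65 and -0.53, neither called (limma adjusted p = 0.202 and 0.222).

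The remaining members of the shuttle were not called. Cpt2, the inner-membrane transferase, had log2 fold changes of 0.04 (95% interval -0.20 to 0.27) in WT and -0.09 (-0.37 to 0.19) in PXR-KO mice. Slc25a20, the carnitine-acylcarnitine carrier, had -0.21 and -0.15 by its main probe set, while a second one was called lower in WT mice (-0.33, limma adjusted p = 0.0218). Crat, the carnitine acetyltransferase, was measured poorly. Its WT CMP013 ratios were 0.295, 1.46, 1.83, 1.59 and 1.41, with 1 animal far below the others, and the interval ran from -0.83 to 1.13. Another probe set of Crat was called higher in WT mice (0.90, limma adjusted p = 0.01). In all, 2 of the 5 shuttle genes (40%) fell in WT mice, against 7.98% over the array with 1 probe set per gene. None of the 5 was called in PXR-KO mice by limma, where 1 lower value had an unadjusted p under 0.05. Such lower values made up 9.25% of all probe sets.

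Long-chain acyl-CoA synthetases activate fatty acids for oxidation as well as for lipid synthesis. Of the 3 measured, 2 rose in WT mice (66.7%, against 9.72% over the array with 1 probe set per gene). Acsl1, which was not measured here, is reported by the study itself as lower in both genotypes. Acsl3, a synthetase of the endoplasmic reticulum and of lipid droplets, had ratios of 1.34, 1.01, 0.966, 1.11 and 0.737 in WT vehicle animals and of 1.99, 1.98, 2.03, 1.6 and 2.17 under CMP013. The PXR-KO ratios were 1.14, 1.13, 0.911, 0.896 and 0.907 under vehicle and 1.42, 1.54, 1.43, 2.22 and 1.81 under CMP013. No treated animal of either genotype reached down to the vehicle range. Acsl3 rose 1.92-fold in WT (log2 0.94, SE 0.16, limma adjusted p = 0.00336) and 1.67-fold in PXR-KO mice (log2 0.74, SE 0.15, limma adjusted p = 0.0257), and the difference was 0.20 (95% interval -0.25 to 0.65). Of its 3 probe sets 2 were called in each genotype, and the other had values of 0.10 and 0.27. The PXR-KO call was lost when PXR-KO vehicle animal 3, 4 or 5 or CMP013 animal 2 was left out, with an adjusted p of up to 0.0636.

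Acsl4, which prefers arachidonic acid, had WT ratios of 0.998, 0.806, 1.01, 1.03 and 1.19 under vehicle and 1.58, 1.52, 1.59, 1.15 and 1.23 under CMP013. The groups overlapped by 1 treated animal. In PXR-KO mice the ratios were 1.1, 0.922, 0.938, 0.925 and 1.11 under vehicle and 0.688, 1.13, 1.01, 1.27 and 1.11 under CMP013, widely overlapping. Acsl4 rose in WT mice (log2 0.49, SE 0.14, limma adjusted p = 0.0384), and all 3 of its probe sets were called. The PXR-KO value was 0.04 (SE 0.16, limma adjusted p = 0.92) and the difference between genotypes, 0.45, was not called (limma adjusted p = 0.193). By the probe set used, the WT call was lost when WT vehicle animal 1, 2, 3 or 4 or CMP013 animal 1, 2 or 3 was left out, with an adjusted p of up to 0.0859.

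Acsl5, a synthetase of the outer mitochondrial membrane and endoplasmic reticulum, was the gene of the list with the clearest difference between genotypes. WT ratios were 0.983, 1.02, 1.05, 1.02 and 0.93 under vehicle and 0.986, 1.00, 1.06, 1.08 and 0.994 under CMP013, the same range. PXR-KO ratios were 1.05, 1.07, 0.98, 0.981 and 0.928 under vehicle and 0.513, 0.567, 0.653, 0.581 and 0.765 under CMP013, without overlap. The log2 fold change was 0.03 (SE 0.07, 95% interval -0.13 to 0.20) in WT and -0.71 (SE 0.11, limma adjusted p = 0.0115) in PXR-KO mice. The difference was 0.75 (SE 0.13, limma adjusted p = 0.000952), from 1 probe set.

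**Figure D2:**
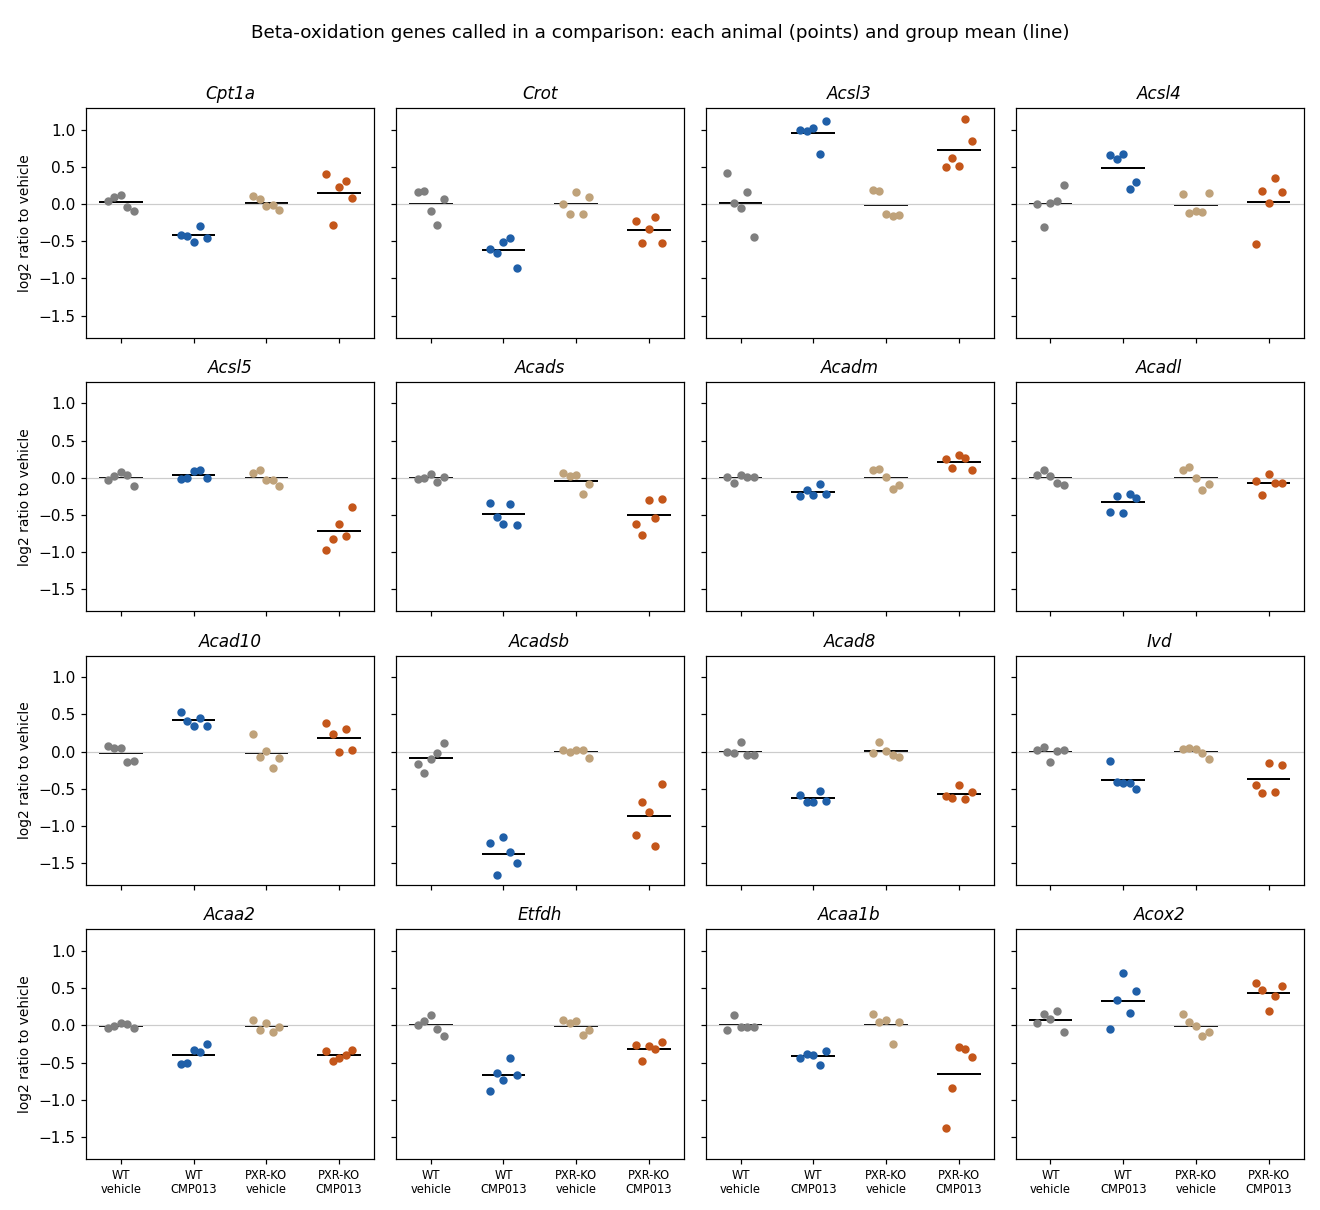
Log2 ratio of each animal to the vehicle mean of its genotype (y axis) for the 16 beta-oxidation genes called in WT, in PXR-KO or in the difference, with 5 animals per group in the labels' order and the group mean as a line. For Acsl5 the PXR-KO CMP013 animals (0.513 to 0.765 as ratios) lie below the PXR-KO vehicle animals, while the 2 WT groups overlap. For Cpt1a all 5 WT CMP013 animals (0.706 to 0.813) lie below the WT vehicle animals.

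The straight-chain acyl-CoA dehydrogenases carry out the first oxidation of each round, and each prefers another chain length. Acads, for short chains, had WT ratios of 0.985, 0.996, 1.03, 0.958 and 1.01 under vehicle and 0.791, 0.697, 0.652, 0.781 and 0.647 under CMP013. Its PXR-KO ratios were 1.05, 1.01, 1.03, 0.859 and 0.942 under vehicle and 0.653, 0.588, 0.815, 0.685 and 0.821 under CMP013. Neither genotype showed overlap. The log2 fold changes were nearly equal, -0.49 (SE 0.09, limma adjusted p = 0.00512) in WT and -0.47 (SE 0.12, limma adjusted p = 0.0568) in PXR-KO mice, and only the first passed the test. The difference was -0.02 (95% interval -0.31 to 0.27).

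Acadm, for medium chains, was called in neither genotype but in the difference. WT ratios were 1.00, 0.954, 1.03, 1.01 and 1.01 under vehicle and 0.847, 0.891, 0.849, 0.941 and 0.861 under CMP013, all treated animals lying below all vehicle animals. PXR-KO ratios were 1.08, 1.08, 1.01, 0.901 and 0.938 under vehicle and 1.19, 1.1, 1.23, 1.21 and 1.07 under CMP013, where all treated animals lay above 1 but the groups overlapped. The values were -0.19 (SE 0.07, limma adjusted p = 0.116) and 0.21 (SE 0.09, limma adjusted p = 0.215), and the difference was -0.40 (SE 0.10, limma adjusted p = 0.0137). It was lost under the same 3 alternatives as that of Cpt1a, with an adjusted p of up to 0.162.

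Acadl, for long chains, had WT ratios of 1.03, 1.08, 1.01, 0.953 and 0.934 under vehicle and 0.728, 0.845, 0.723, 0.86 and 0.83 under CMP013, without overlap. In PXR-KO mice they were 1.08, 1.1, 0.998, 0.889 and 0.943 against 0.973, 0.852, 1.03, 0.954 and 0.957, with overlap. Acadl fell by 0.33 in WT mice (log2, SE 0.09, limma adjusted p = 0.0318), while the PXR-KO value was -0.07 (limma adjusted p = 0.727) and the difference of -0.26 was not called (limma adjusted p = 0.172). The WT call was lost when WT vehicle animal 1, 2, 3 or 4 or CMP013 animal 1 or 3 was left out, with an adjusted p of up to 0.0742, and a second probe set was not called (-0.16).

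Acad10, a less well characterised member of the family, rose in WT mice. Its ratios were 1.05, 1.04, 1.04, 0.907 and 0.92 under vehicle and 1.45, 1.33, 1.27, 1.37 and 1.27 under CMP013, without overlap, and in PXR-KO mice 1.18, 0.952, 1.00, 0.857 and 0.947 against 1.3, 1.18, 0.992, 1.23 and 1.02, with overlap. The log2 fold change was 0.44 (SE 0.08, limma adjusted p = 0.00752) in WT and 0.21 (SE 0.12, limma adjusted p = 0.344) in PXR-KO mice, and a second probe set had an uncalled 0.21 in WT mice (limma adjusted p = 0.68). Acadvl, for very long chains, Acad9, also an assembly factor of respiratory complex I, and Acad11 were called in no comparison, with values from -0.12 to 0.09 in WT and from -0.28 to 0.04 in PXR-KO mice. The family thus held 2 falls and 1 rise in WT mice (28.6% and 14.3%), against 7.98% and 9.72% over the array with 1 probe set per gene. None of the 7 genes was called in PXR-KO mice by limma, where 1 lower and 1 higher value had an unadjusted p under 0.05. Such lower and higher values made up 9.25% and 10.8% of all probe sets.

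The 3 dehydrogenases that act on branched-chain acyl-CoA, the products of valine, leucine and isoleucine, were all called lower in WT mice, 2 of them in PXR-KO mice as well. Over the array with 1 probe set per gene, 7.98% were lower in WT and 2.14% in PXR-KO mice. Acadsb had the largest decrease of the list in each genotype. Acadsb, of the isoleucine branch, had WT ratios of 0.892, 0.819, 0.932, 0.991 and 1.08 under vehicle and 0.429, 0.317, 0.452, 0.392 and 0.353 under CMP013. In PXR-KO mice they were 1.02, 0.993, 1.02, 1.01 and 0.943 under vehicle and 0.459, 0.625, 0.571, 0.416 and 0.741 under CMP013, without overlap in either genotype and with a wider spread among the treated PXR-KO animals. Acadsb fell to 0.41 of vehicle in WT (log2 -1.28, SE 0.12, limma adjusted p = 0.000156) and to 0.552 in PXR-KO mice (log2 -0.86, SE 0.15, limma adjusted p = 0.0161). The difference of -0.43 was not called (limma adjusted p = 0.172). The only probe set of Acadsb carries the mark of probes that can bind other transcripts.

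Acad8, of the valine branch, had WT ratios of 0.995, 0.986, 1.09, 0.969 and 0.966 under vehicle and 0.67, 0.623, 0.625, 0.695 and 0.629 under CMP013. The PXR-KO ratios were 0.983, 1.1, 1.01, 0.973 and 0.954 against 0.663, 0.652, 0.731, 0.641 and 0.689, so that treated animals of both genotypes occupied nearly the same narrow range. Acad8 fell by 0.63 in WT (log2, SE 0.08, limma adjusted p = 0.000692) and by 0.57 in PXR-KO mice (log2, SE 0.08, limma adjusted p = 0.00625), with a difference of -0.06 (95% interval -0.26 to 0.14). Its second probe set was called in PXR-KO mice (-0.63, limma adjusted p = 0.0218) and not in WT mice (-0.32, limma adjusted p = 0.173).

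Ivd, of the leucine branch, had WT ratios of 1.02, 1.05, 0.912, 1.01 and 1.02 under vehicle and 0.912, 0.752, 0.749, 0.744 and 0.704 under CMP013. One treated animal lay as high as the lowest vehicle animal. PXR-KO ratios were 1.02, 1.04, 1.02, 0.991 and 0.93 under vehicle and 0.735, 0.682, 0.903, 0.685 and 0.884 under CMP013, without overlap. The log2 fold changes were -0.38 (SE 0.09, limma adjusted p = 0.022) and -0.37 (SE 0.11, limma adjusted p = 0.0845), of which the first passed the test, by both probe sets. The WT call was lost when WT vehicle animal 1 or 5 or CMP013 animal 3 or 4 was left out, with an adjusted p of up to 0.0537.

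The 250 bases before the annotated starts of these 3 genes are shown, from RefSeq on GRCm38.p6 and read in the direction of the gene. Whether the changes of the 3 genes are linked was not tested. Capitals mark CCAAT as well as GGGCGG in either direction. Acadsb lies at chr7:131410351-131410600 (plus strand), Acad8 at chr9:26999550-26999799 (minus strand) and Ivd at chr2:118861744-118861993 (plus strand).
Acadsb: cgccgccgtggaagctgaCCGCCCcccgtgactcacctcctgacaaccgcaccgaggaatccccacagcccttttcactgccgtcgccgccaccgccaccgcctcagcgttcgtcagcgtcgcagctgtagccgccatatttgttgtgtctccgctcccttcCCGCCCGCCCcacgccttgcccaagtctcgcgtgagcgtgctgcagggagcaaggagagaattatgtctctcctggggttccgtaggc
Acad8: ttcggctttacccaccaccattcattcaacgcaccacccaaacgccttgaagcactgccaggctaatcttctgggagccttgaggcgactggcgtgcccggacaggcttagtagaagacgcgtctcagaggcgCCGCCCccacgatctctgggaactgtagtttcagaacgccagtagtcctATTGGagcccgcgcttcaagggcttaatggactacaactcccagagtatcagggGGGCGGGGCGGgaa
Ivd: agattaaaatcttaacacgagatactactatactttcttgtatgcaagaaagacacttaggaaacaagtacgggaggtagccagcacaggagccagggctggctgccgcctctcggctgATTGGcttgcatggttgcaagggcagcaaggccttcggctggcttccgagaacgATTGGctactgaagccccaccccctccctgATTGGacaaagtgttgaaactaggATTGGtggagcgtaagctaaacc

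The windows share no single motif of those searched. GGGCGG stood 3 times each before Acadsb and Acad8 and not before Ivd, and CCAAT stood 4 times before Ivd, 1 time before Acad8 and not before Acadsb. Over all 32851 promoters of the table, 32.7% hold GGGCGG and 33.8% CCAAT. Of the 39 genes 33 have a promoter there, and 23 of them hold GGGCGG and 17 CCAAT. Such matches are letters in a window and not shown sites.

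Cpt1a and Acadm, whose WT responses were lower than their PXR-KO responses, are 2 of the 5 genes with the half-site AGGTCA in this window, next to Acadvl, Echs1 and Scp2. These 5 are among 33 genes with a promoter, a share close to the 14% of all promoters that hold the half-site. Of the 15 called genes with a promoter, 2 hold it. Here capitals mark AGGTCA as well as CCAAT and GGGCGG, each in either direction. The windows are chr19:3323051-3323300 (plus strand) for Cpt1a and chr3:153944644-153944893 (minus strand) for Acadm.
Cpt1a: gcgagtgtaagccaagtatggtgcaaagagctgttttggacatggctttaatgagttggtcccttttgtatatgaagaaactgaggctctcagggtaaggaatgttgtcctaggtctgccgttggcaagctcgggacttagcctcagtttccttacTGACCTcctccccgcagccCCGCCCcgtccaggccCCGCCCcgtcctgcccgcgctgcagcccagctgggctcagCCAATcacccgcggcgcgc
Acadm: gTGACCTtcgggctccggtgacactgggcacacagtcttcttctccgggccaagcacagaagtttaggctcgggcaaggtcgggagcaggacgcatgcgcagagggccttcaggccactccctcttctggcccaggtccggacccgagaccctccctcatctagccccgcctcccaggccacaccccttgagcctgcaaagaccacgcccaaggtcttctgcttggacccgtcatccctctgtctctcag

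Each of both windows holds AGGTCA 1 time, in the reverse direction. A pair of such half-sites in the same direction with 1 base between them (DR1), the element known for PPARa and its partner RXR, stood before none of the 33 genes and in 0.0335% of all promoters. Only exact half-sites were searched, and with so rare a match its absence before these genes is not informative. The absence also says nothing about binding elsewhere.

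Of the 7 genes of the later mitochondrial steps 1 fell in each genotype (14.3%). Over the array with 1 probe set per gene, 7.98% were lower in WT and 2.14% in PXR-KO mice. Acaa2, the thiolase that releases acetyl-CoA, had WT ratios of 0.98, 0.995, 1.02, 1.01 and 0.98 under vehicle and 0.698, 0.701, 0.792, 0.777 and 0.844 under CMP013. The PXR-KO ratios were 1.05, 0.958, 1.03, 0.943 and 0.986 under vehicle and 0.791, 0.721, 0.741, 0.761 and 0.796 under CMP013, and no treated animal overlapped with the vehicle animals of its genotype. Acaa2 fell by 0.39 in WT (log2, SE 0.08, limma adjusted p = 0.0107) and by 0.38 in PXR-KO mice (log2, SE 0.08, limma adjusted p = 0.0265), a difference of -0.01 (95% interval -0.21 to 0.19). All 3 probe sets were called in WT mice and 1 in PXR-KO mice. The PXR-KO call was lost when PXR-KO vehicle animal 1, 3 or 5 or CMP013 animal 2 or 4 was left out, with an adjusted p of up to 0.0753.

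The 2 subunits of the trifunctional protein, which hydrates, oxidises and cleaves long chains, were not called. Hadha had values of -0.10 (95% interval -0.28 to 0.07) in WT and -0.20 (-0.45 to 0.05) in PXR-KO mice, and Hadhb had 0.00 (-0.18 to 0.18) and -0.15 (-0.35 to 0.05). Echs1, the hydratase of short chains, and Hadh, the dehydrogenase of short and medium hydroxyacyl-CoA, had WT values of -0.18 and -0.16 and PXR-KO values of -0.11 and 0.03, uncalled. The auxiliary enzymes for unsaturated chains, Eci1 (an isomerase) and Decr1 (a reductase), had values above 0 in WT mice (0.08 and 0.14) and below 0 in PXR-KO mice (-0.30 and -0.21), with differences of 0.38 and 0.35 that did not pass the test (limma adjusted p = 0.0578 and 0.0714). 

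Electrons from the acyl-CoA dehydrogenases pass through electron transfer flavoprotein (Etfa and Etfb) to its oxidoreductase Etfdh and on to ubiquinone. Etfdh had WT ratios of 1.01, 1.04, 1.1, 0.962 and 0.902 under vehicle and 0.542, 0.642, 0.6, 0.741 and 0.628 under CMP013. PXR-KO ratios were 1.05, 1.02, 1.04, 0.918 and 0.96 under vehicle and 0.83, 0.719, 0.822, 0.805 and 0.854 under CMP013, again without overlap but closer to the vehicle animals. Etfdh fell by 0.67 in WT mice (log2, SE 0.10, limma adjusted p = 0.00212), and the PXR-KO value was -0.31 (SE 0.08, limma adjusted p = 0.0734). The difference of -0.36 did not pass the test (limma adjusted p = 0.0638). A second probe set of Etfdh had an uncalled -0.81 in WT mice (limma adjusted p = 0.139). Both flavoprotein subunits had WT values of -0.09, and PXR-KO values of -0.19 for Etfa and -0.12 for Etfb, none called. None of the 3 genes was called in PXR-KO mice by limma, where 2 lower values had an unadjusted p under 0.05. Such lower values made up 9.25% of all probe sets.

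Among the 9 peroxisomal enzymes 1 fell in WT mice and 1 rose in PXR-KO mice, which is 11.1% each. Over the array with 1 probe set per gene, 7.98% were lower in WT and 2.5% higher in PXR-KO mice. Acaa1b, a peroxisomal thiolase, had WT ratios of 0.959, 1.1, 0.989, 0.983 and 0.982 under vehicle and 0.741, 0.769, 0.757, 0.689 and 0.79 under CMP013. In PXR-KO mice they were 1.11, 1.03, 1.05, 0.837 and 1.03 under vehicle and 0.384, 0.56, 0.815, 0.799 and 0.745 under CMP013, without overlap but with 1 vehicle animal close to the treated ones and a wide treated range. Acaa1b fell by 0.42 in WT mice (log2, SE 0.08, limma adjusted p = 0.00627), and its PXR-KO value of -0.66 did not pass the test (SE 0.20, limma adjusted p = 0.106). Acaa1a is a near-identical copy, so signal of these probes may come from either. Probe sets that name both genes fell in WT mice (-0.45 and -0.41) and 1 of these 2 in PXR-KO mice (-0.68, limma adjusted p = 0.0496), whereas the 2 that name Acaa1a alone were called in no comparison.

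Acox2, the peroxisomal oxidase for branched chains and bile acid intermediates, had WT ratios of 1.02, 1.12, 1.06, 1.14 and 0.943 under vehicle and 0.97, 1.27, 1.63, 1.12 and 1.38 under CMP013, with overlap. PXR-KO ratios were 1.11, 1.04, 0.995, 0.907 and 0.937 under vehicle and 1.49, 1.4, 1.15, 1.32 and 1.44 under CMP013, without overlap. Acox2 rose in PXR-KO mice (log2 0.44, SE 0.10, limma adjusted p = 0.0412), and the WT value was 0.25 (SE 0.14, limma adjusted p = 0.281). The call was lost when PXR-KO vehicle animal 2, 3, 4 or 5 or CMP013 animal 1, 2, 4 or 5 was left out, with an adjusted p of up to 0.0985.

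The other peroxisomal enzymes were uncalled. Acox3, another branched-chain oxidase, had -0.20 in WT and -0.42 in PXR-KO mice (limma adjusted p = 0.0654), and a second probe set of it had values of opposite sign, -0.75 and 1.25, also uncalled. Ehhadh, the bifunctional enzyme of straight chains, had 0.05 and -0.39, and Hsd17b4, that of branched and very long chains, had 0.10 and -0.11. Decr2, a reductase, had -0.21 (limma adjusted p = 0.071) and -0.41 (limma adjusted p = 0.0903), and Eci2, an isomerase, had -0.24 and -0.04. Scp2, which includes the thiolase for branched chains, had -0.11 and -0.12.

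**Figure D3:**
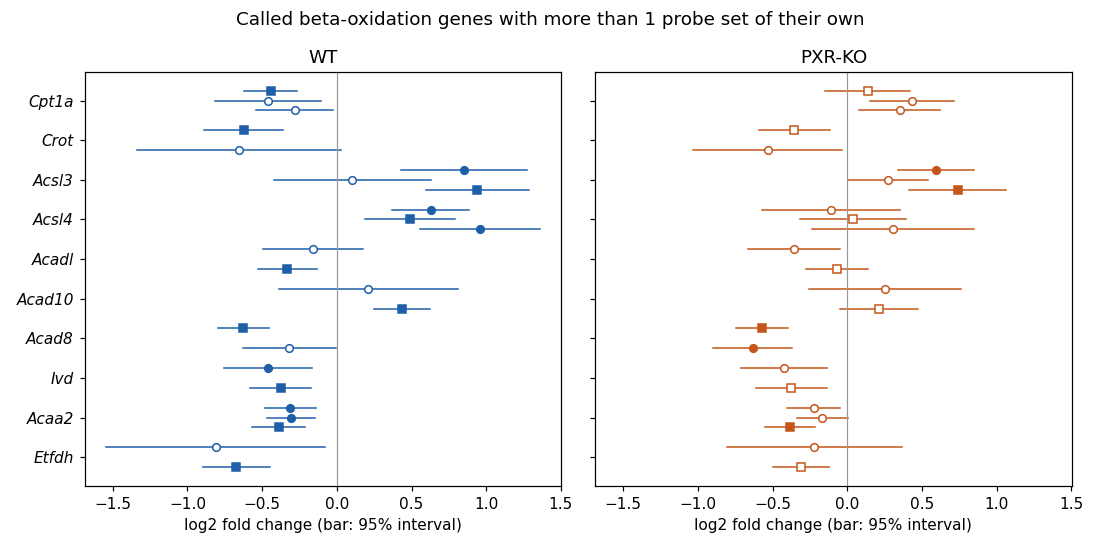
Log2 fold change of CMP013 against vehicle (x axis) for every probe set of the called beta-oxidation genes that have more than 1, in WT (left) and PXR-KO mice (right). Bars are 95% intervals, squares the probe set used for the gene, circles its others, and filled symbols are called. The 3 probe sets of Acsl4 are all called in WT mice, whereas 1 of the 3 of Acsl3 (0.10 in WT mice) lies near 0.

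Counted by animal, between 9 and 13 of the 37 genes lay more than 1.25-fold below the vehicle mean in each WT CMP013 animal, and between 6 and 17 in each PXR-KO CMP013 animal. Vehicle animals had 0 to 2 such genes. Over all probe sets the same step was passed downwards by 23.5% to 31.2% in WT and 18.5% to 22.1% in PXR-KO CMP013 animals, against 24.3% to 35.1% and 16.2% to 45.9% of the beta-oxidation genes. In vehicle animals it was passed by 10.9% to 21.5% of all probe sets and by 0% to 5.41% of these genes. The lowest and highest counts among treated PXR-KO animals were those of animals 3 and 2.

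Beyond the 39 genes, 47 other measured genes of the pathway were examined as a list. In WT mice 13 fell and 4 rose, in PXR-KO mice 5 fell and 1 rose, and the difference was called lower for 4 and higher for 6. These are 27.7% lower with 8.51% higher in WT mice, 10.6% with 2.13% among PXR-KO mice, and 8.51% with 12.8% of the genes by the difference, beside the shares of all probe sets given above for the same comparisons. Among 10 regulators, Ppara, the receptor that drives many genes of the pathway, fell in WT mice, from ratios of 0.823 to 1.17 under vehicle to 0.674 to 0.79 under CMP013 (log2 -0.48, limma adjusted p = 0.0146). Its PXR-KO value was 0.12 and the difference -0.60 was called (limma adjusted p = 0.00723), although a called second probe set in WT mice gave a difference that was not. Ppargc1a, a coactivator of PPARa named here after its values were seen, fell in WT mice to ratios of 0.0726 to 0.708 (log2 -2.24, limma adjusted p = 0.0129), with a PXR-KO value of -0.02 and a called difference of -2.22 (limma adjusted p = 0.0211). Of its 5 probe sets 2 were called. Rxra and Ppargc1b also fell in WT mice by the probe set used (-0.31 and -0.70, limma adjusted p = 0.0154 and 0.0393). Their PXR-KO values of -0.21 and -1.13 were not called (limma adjusted p = 0.255 and 0.125), nor were their differences.

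The enzymes that make malonyl-CoA, the inhibitor of Cpt1a, went different ways by genotype. Acacb, the mitochondrial acetyl-CoA carboxylase, fell in PXR-KO mice from ratios of 0.824 to 1.17 under vehicle to 0.0717 to 0.373 under CMP013 (log2 -2.78, limma adjusted p = 0.0098). In WT mice its treated animals had ratios of 1.14 to 1.56 (log2 0.39, limma adjusted p = 0.206), and the difference was 3.17 (limma adjusted p = 0.000388). Acaca, the cytosolic carboxylase of fatty acid synthesis, rose in WT mice (log2 0.57, limma adjusted p = 0.04), had -0.46 in PXR-KO mice and a difference of 1.02 (limma adjusted p = 0.00714). For both genes a second probe set was called in no comparison.

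Of 2 measured genes of ketone body synthesis both fell in WT mice by the probe set used. Acat1, the mitochondrial acetoacetyl-CoA thiolase, had -0.62 (limma adjusted p = 0.00187) against -0.12 in PXR-KO mice, with a called difference of -0.51 (limma adjusted p = 0.00933), and all 3 of its probe sets gave these calls. Bdh1, which interconverts acetoacetate and hydroxybutyrate, had -0.39 (limma adjusted p = 0.00795) and -0.28, while a second probe set had -0.06 in WT mice (limma adjusted p = 0.822). For peroxisomal entry, Slc25a17, the carrier of CoA and other cofactors, rose in WT mice (log2 0.35, limma adjusted p = 0.0395). In PXR-KO mice it fell (log2 -1.04, limma adjusted p = 0.0069), with a difference of 1.39 (limma adjusted p = 5.39e-05), and a second probe set was called in no comparison. Abcd3, a peroxisomal transporter of acyl groups, fell in PXR-KO mice (-0.52, limma adjusted p = 0.0161; difference 0.37, limma adjusted p = 0.0226) by 1 of its 2 probe sets, the other having an uncalled 0.08. Slc27a2, the very-long-chain acyl-CoA synthetase, fell in WT mice (-0.41, limma adjusted p = 0.0029).

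Among 9 peroxisomal side enzymes and thioesterases, Nudt7, a peroxisomal CoA hydrolase, fell in both genotypes (-0.61, limma adjusted p = 0.0448 in WT and -1.36, limma adjusted p = 0.00587 in PXR-KO mice). Nudt19, another CoA hydrolase, rose in WT mice (0.33, limma adjusted p = 0.0177), and the thioesterase Acot4 rose in PXR-KO mice (1.34, limma adjusted p = 0.0287) by 1 of 2 probe sets. In the propionate branch, which takes up odd-chain and branched-chain remnants, the carboxylase subunit Pccb fell in WT mice (-0.57, limma adjusted p = 0.00211; difference -0.36, limma adjusted p = 0.0488) and the subunit Pcca, by 1 of 2 probe sets, in PXR-KO mice (-0.45, limma adjusted p = 0.0339; difference 0.54, limma adjusted p = 0.00506). Of 13 other enzymes of branched-chain amino acid breakdown, 2 fell in WT mice, Dbt (-0.46, limma adjusted p = 0.0218) and Bckdha (-0.31, limma adjusted p = 0.0324), both components of the branched-chain keto acid dehydrogenase that acts just before Acadsb, Acad8 and Ivd. None of the 13 was called in PXR-KO mice by limma, where 4 lower values had an unadjusted p under 0.05. Such lower values made up 9.25% of all probe sets. Second probe sets gave other calls: 1 of Bckdk, the inhibitory kinase of that complex, rose in WT mice (0.66, limma adjusted p = 0.0264), while PXR-KO mice had a called fall (-0.60, limma adjusted p = 0.0142), and 1 of Hibch, of valine breakdown, rose in WT mice (0.49, limma adjusted p = 0.00345). Both had called differences (1.26 and 0.73), and 1 of Mccc2, of leucine breakdown, fell in WT mice (-0.57, limma adjusted p = 0.0465). Hibadh, of valine breakdown, was called in the difference alone (0.38, limma adjusted p = 0.0268).

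**Figure D4:**
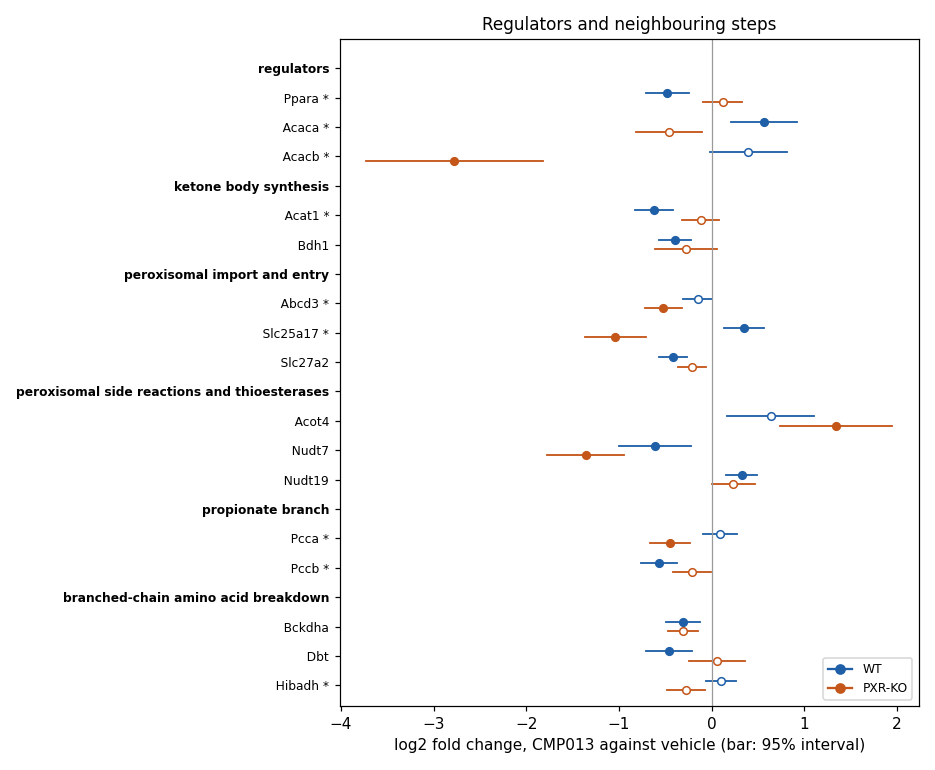
Log2 fold change of CMP013 against vehicle (x axis) for regulators and neighbouring steps, up to 3 called genes per group with the smallest adjusted p, in WT (blue) and PXR-KO mice (orange). Bars are 95% intervals, filled points are called and an asterisk marks a called difference. Acacb lies at -2.78 in PXR-KO mice and at 0.39 in WT mice.

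Markers of liver cell types moved as well. Of 6 hepatocyte markers 1 fell in WT mice (Pck1, -0.64, an enzyme of gluconeogenesis that is regulated by feeding) and none was called in PXR-KO mice by limma, nor had any an unadjusted p under 0.05 there. Of 5 markers of sinusoidal endothelium 3 fell in WT mice, and the mean of the list ran from -0.46 to -0.36 (log2) in treated against -0.18 to 0.14 in vehicle animals. In PXR-KO mice 1 of these fell and 1 rose, with list means of 0.00 to 0.20 in treated and -0.10 to 0.10 in vehicle animals. The 1 that rose was Lyve1 (1.12, limma adjusted p = 0.00482), and the other 4 had values below 0, from -0.41 for Kdr to -0.02 for Pecam1. Of 7 markers of Kupffer cells and macrophages 2 fell in WT mice and 1, Cd68, rose in PXR-KO mice (1.11, limma adjusted p = 0.00381). Of 5 stellate cell markers 1 fell in WT mice (Lrat, -0.71), and of 2 red cell markers Alas2 fell in both genotypes (-1.07 and -1.71) and Hba-a1 rose in WT mice (0.56). The part of these shifts in the results on beta-oxidation genes was not tested. A group of 4 vehicle animals (WT 3 and 4, PXR-KO 2 and 4) were known to stand apart on a principal component of these data, and without them 7 genes fell and 1 rose in WT mice, 1 fell and 0 rose in PXR-KO mice, where 14 lower and 2 higher values had an unadjusted p under 0.05 by limma, and 1 difference was called.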

How the data were processed

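Livers of 20 mice were profiled on Affymetrix Mouse430_2 arrays, 1 per animal. The deposited values are log10 ratios of an animal to the vehicle mean of its genotype, which the authors computed with Rosetta Resolver 7.2. Background correction and summarization of intensities were not given in the sources used here. Detection of single probe sets was not used. The log10 values were multiplied by 3.32 to give log2. Values of 45037 probe sets were fitted with limma 3.58.1 in R 4.3.3 (lmFit, eBayes), 10 arrays per genotype and 20 for the difference, with Benjamini-Hochberg adjustment. Figures were drawn with matplotlib 3.10.9.

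The beta-oxidation genes and the lists were chosen with earlier results of these data known. Every gene of the list is accounted for, and each animal is given for those called. For other pathway genes up to 3 per group with the smallest adjusted p are named. The regulators Ppargc1a, Ppargc1b and Rxra, and genes with called second probe sets, are named in addition. The probe set of a gene names no other gene, has no _s_ or _x_ mark where possible, and has the smallest vehicle SD. The fits were tested on simulated data. Alternatives were a common median, quantile normalization, a replicate block, trend and robust variances, 1 fit for all groups, other choices of probe set, and animals left out.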

Additional observations from a re-analysis of the deposited data

Results flagged for a closer look

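Of 148 groups of 5 animals (37 genes in 4 groups), 9 held an animal far from the other 4, measured by its gap to the next animal over the range of the group, and chance gives about 1 in 20. Among treated animals these were Crat in WT CMP013 animal 1 (ratio 0.295, next 1.41), Ivd in WT CMP013 animal 1 (0.912, next 0.752), Cpt2 in PXR-KO CMP013 animal 2 (0.707, next 0.856) and Acox3 in PXR-KO CMP013 animal 1 (0.867, next 0.698). Among vehicle animals these were Slc25a20 (1.13), Crat (0.891) and Acaa1b (1.10) in WT animal 2, Acad8 in WT animal 3 (1.09) and Acaa1b in PXR-KO animal 4 (0.837).

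The responses of both genotypes differed by the test of the difference for Cpt1a (-0.58), Acadm (-0.40) and Acsl5 (0.75), as WT minus PXR-KO on the log2 scale.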

How the results depend on the processing

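No called gene changed direction under any alternative run. The 10 genes lower in WT mice became 4 with quantile normalization and 3 with a replicate block, and the 3 higher became 0 (3 with an unadjusted p under 0.05 by limma) and 1, and 1 without the 4 vehicle animals. The 4 lower in PXR-KO mice became 0 with a replicate block, 0 with trend and robust variances (12 and 14 unadjusted) and 1 without the 4 vehicle animals. With all 4 groups in 1 fit they became 11, where 2.99% of all probe sets were lower in PXR-KO mice. The 2 higher there became 0 with quantile normalization, a replicate block, trend and robust variances, and without the 4 vehicle animals (2, 3, 3 and 2 unadjusted). Shares of all probe sets at an unadjusted p were not counted for these runs. The 3 differences became 1 with quantile normalization, with a replicate block and without the 4 vehicle animals. In that order, 1.12% and 1.62%, 2.52% and 3.02%, and 2.48% and 3.17% of all probe sets had a difference called lower and higher. The main fit had 5.49% and 5.47%. Over all probe sets the shares lower and higher were, with the block, 2.79% and 3.93% (WT) or 0.107% and 0.158% (PXR-KO), and without the 4 vehicle animals 3.05% and 4.29% (WT) or 0.34% and 0.466% (PXR-KO). The cause was not tested. Leaving out 1 animal gave 8 to 10 lower and 2 to 3 higher in WT mice, 3 to 5 lower and 0 to 2 higher in PXR-KO mice, and 3 to 5 differences. The count of 0 higher was reached without PXR-KO vehicle animal 3, 4 or 5 or CMP013 animal 2 (2, 2, 2 and 4 unadjusted), that of 1 without vehicle animal 2 or CMP013 animal 1, 4 or 5, and that of 5 differences without PXR-KO CMP013 animal 3. The calls of Acadsb and Acad8 in WT mice held in all 18 alternatives, and the difference of Acsl5 in all 27.

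No sign of a pairing by replicate number was seen within a genotype. Deviations of same-numbered vehicle and treated animals correlated at -0.24 to 0.07 in WT and at -0.20 to 0.05 in PXR-KO mice. No animal was closest to its own number (0 of 5 in each). With so few animals this cannot show that nothing was shared. The number of arrays limits the precision. The p-values set a mean difference against the spread between 5 animals per group, which limma moderates by that of all probe sets.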
